A study of Homo sapiens with 24 samples.

Results

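The alpha- and beta-tubulin isotypes are the genes that code for the protein building blocks of microtubules. They were taken here as the entries of the deposited read-count table whose gene symbol was TUBA1A, TUBA1B, TUBA1C, TUBA4A, TUBB, TUBB2A, TUBB2B, TUBB3, TUBB4B or TUBB6, which gave 10 of the 14493 genes listed. All 10 passed the filter on low counts in all comparisons. RNA-seq was performed on SKBr3 cells, a human breast cancer line in long use that carries amplified ERBB2, and gave 24 libraries in 8 groups of 3 replicates. Cells in 6 groups were driven into therapy-induced senescence (TIS), a growth arrest brought on by a drug, and collected on day 7 after the drug had been renewed on day 3. ND-646, an inhibitor of acetyl-CoA carboxylase (ACC), and TVB-3166, an inhibitor of fatty acid synthase (FASN), were each given at 250 nmol/L, and the state they produce is called FASTIS, for fatty acid synthesis therapy-induced senescence. The other TIS inducers were bleomycin, which breaks DNA, at 10 umol/L, alisertib, an inhibitor of the mitotic kinase Aurora A, at 500 nmol/L, doxorubicin, a topoisomerase poison, at 10 nmol/L, and palbociclib (spelled Palboclib in the labels), an inhibitor of the kinases CDK4 and CDK6, at 1 umol/L. Untreated cells were collected on day 0, as proliferative controls, and on day 7, as controls of the same age as the drug groups. The labels give a refeed on day 3 for every drug group and name none for the day-7 controls. If those were not refed, drug and refeed cannot be told apart in the comparisons with day-7 cells. The labels give no genetic change in any group.

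An alpha- and a beta-tubulin protein pair to form the unit that polymerises into microtubules, the hollow fibres that build the mitotic spindle, carry cargo and shape the cell. Vertebrates use several genes for each partner, and the proteins differ mostly in their acidic C-terminal tails, where enzymes add and remove tyrosine, glutamate and glycine. TUBA1B, TUBA1C, TUBB and TUBB4B are widely expressed, whereas TUBA1A, TUBB2A, TUBB2B and TUBB3 are best known from neurons and TUBA4A also from platelets. Cells also hold tubulin mRNAs in check by autoregulation, in which free tubulin leads to decay of tubulin mRNAs that are being translated, after the factor TTC5 has recognised the first residues of the new chain.

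The starts of the coding sequences are shown because autoregulation reads their product. They were read from the reference transcripts (GRCh37, GENCODE), 5′ to 3′ on the coding strand, with codons 2 to 4 in capitals.
TUBA1B: atgCGTGAGTGC
TUBA4A: atgCGTGAATGC
TUBB: atgAGGGAAATC
TUBB3: atgAGGGAGATC
The alpha genes shared a cysteine codon at the fourth place and the beta genes an isoleucine codon. The sequences for the tails are shown for 5 beta genes because the tail is where the isotypes part most, and are given as the last 20 codons before the stop, with the glutamate codons GAA and GAG in capitals.
TUBB: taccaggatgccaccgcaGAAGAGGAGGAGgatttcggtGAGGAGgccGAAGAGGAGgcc
TUBB2A: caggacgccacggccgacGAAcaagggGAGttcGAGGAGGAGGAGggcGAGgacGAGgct
TUBB2B: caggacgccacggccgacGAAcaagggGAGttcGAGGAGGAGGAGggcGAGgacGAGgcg
TUBB3: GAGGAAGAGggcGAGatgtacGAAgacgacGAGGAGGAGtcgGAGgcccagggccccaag
TUBB4B: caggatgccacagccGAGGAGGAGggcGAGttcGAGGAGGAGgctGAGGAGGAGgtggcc
TUBB3 ends in a lysine codon (aag), whereas TUBB, TUBB2A, TUBB2B and TUBB4B end in alanine codons. Over the whole coding sequence, TUBA1A and TUBA1B were 97.2% identical, TUBA1B and TUBA1C 96.8%, and TUBB2A and TUBB2B 98.1%. TUBA4A was 84.4% to 85.7% identical to the TUBA1 genes.

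On GRCh37, TUBA1B (chr12:49521565-49525180), TUBA1A (chr12:49578469-49582863) and TUBA1C (chr12:49582519-49668383) lie in a cluster on chromosome 12, the first and second on the minus strand and TUBA1C on the plus strand. TUBA4A lies at chr2:220114432-220142624 on the minus strand. TUBB2A (chr6:3153731-3157778) and TUBB2B (chr6:3223558-3231964) are neighbours on the minus strand of chromosome 6, and TUBB lies elsewhere on chromosome 6 (chr6:30685212-30693315, plus strand). TUBB3 (chr16:89987800-90005169), TUBB4B (chr9:140135739-140138159) and TUBB6 (chr18:12307668-12344319) are on the plus strand. The canonical transcript of each gene has 4 exons.

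Libraries held between 29405121 and 44316330 counts in all, and each member had between 90 and 88933 counts in a library. TUBB3 and TUBB2B had the fewest counts and TUBB and TUBA1B the most, so the values of the first pair carry the larger counting error. Levels are given as CPM (counts scaled to a common library size, with TMM factors), with the SD of 3 libraries. Nothing in the sources used here says that replicates were separate cultures, so p-values measure the spread between these libraries only. ND-646 replicate 1 had the lowest TMM factor (0.791, against 0.895 to 1.08 elsewhere), and results that rest on it are given with and without it. All 7 markers of the luminal, ERBB2-amplified SKBr3 line were measured, with ERBB2 between 5121 and 8827 CPM in every library. Of the luminal keratins, KRT8 (log2 -1.20 to -0.66) and KRT19 (-1.49 to -0.76) were called lower in all 6 drug groups against day 0 and KRT18 in 5, the exception being ND-646, and KRT7 was called higher with TVB-3166 (0.62). GRB7 was also called higher with TVB-3166, against day 0 (0.62) and day 7 (0.64). KRT7 was called higher against day 7 with ND-646 (0.71), TVB-3166 (0.71) and bleomycin (0.28), but not with alisertib (0.26) or palbociclib (-0.07). ERBB2 was called higher with TVB-3166 against day 7 (0.29), and ERBB2 and EPCAM were called in none of the 6 drug groups against day 0. Of 8 markers of leukocytes, fibroblasts, endothelium, smooth muscle and basal epithelium, 2 were listed, COL1A1 at 6.43 to 15.3 CPM and ACTA2, the smooth muscle actin gene, at 0.254 to 11.6 CPM. ACTA2 was higher against day 0 with doxorubicin (log2 3.68), bleomycin (2.98), ND-646 (2.29) and palbociclib (2.04), and was at 1.32 with alisertib and 1.11 with TVB-3166, both not called. Against day 7, ACTA2 was called higher with alisertib (1.42) and TVB-3166 (1.19) as well. COL1A1 was called lower against day 0 with bleomycin (-0.49), doxorubicin (-0.68) and palbociclib (-0.54). The part of these marker changes in the tubulin values was not tested. In bulk RNA, fewer cells with a transcript and less of it per cell cannot be told apart. A member was called higher or lower at an adjusted p (edgeR quasi-likelihood test, Benjamini-Hochberg over all genes tested) under 0.05, and the 6 comparisons with day-0 cells share the same 3 control libraries, as do the 6 with day-7 cells.

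Senescent cells of each kind had less TUBA1B, TUBB, TUBB4B and TUBA1A mRNA than day-0 cells, and more of the minor isotype TUBB3. Summed over the 4 alpha genes, the level was 2188 ± 325 CPM in day-0 cells and 1706 ± 234 CPM in day-7 cells (mean ± SD, n = 3). It was 888 ± 240.0 in ND-646 cells, 906 ± 103 in TVB-3166 cells, 874 ± 253 with bleomycin and 889 ± 101 with palbociclib. Alisertib cells, at 1439 ± 153, and doxorubicin cells, at 1231 ± 64.6, lay between these and the controls. The 6 beta genes summed to 2803 ± 216 CPM on day 0, 1850 ± 278 on day 7, 916 ± 182 with ND-646 and 883 ± 113 with TVB-3166. Bleomycin cells had 1012 ± 305 CPM of beta-tubulin mRNA, palbociclib cells 1004 ± 103, alisertib cells 1578 ± 172 and doxorubicin cells 1338 ± 87.5. These sums are descriptions and were not tested.

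**Figure D1:**
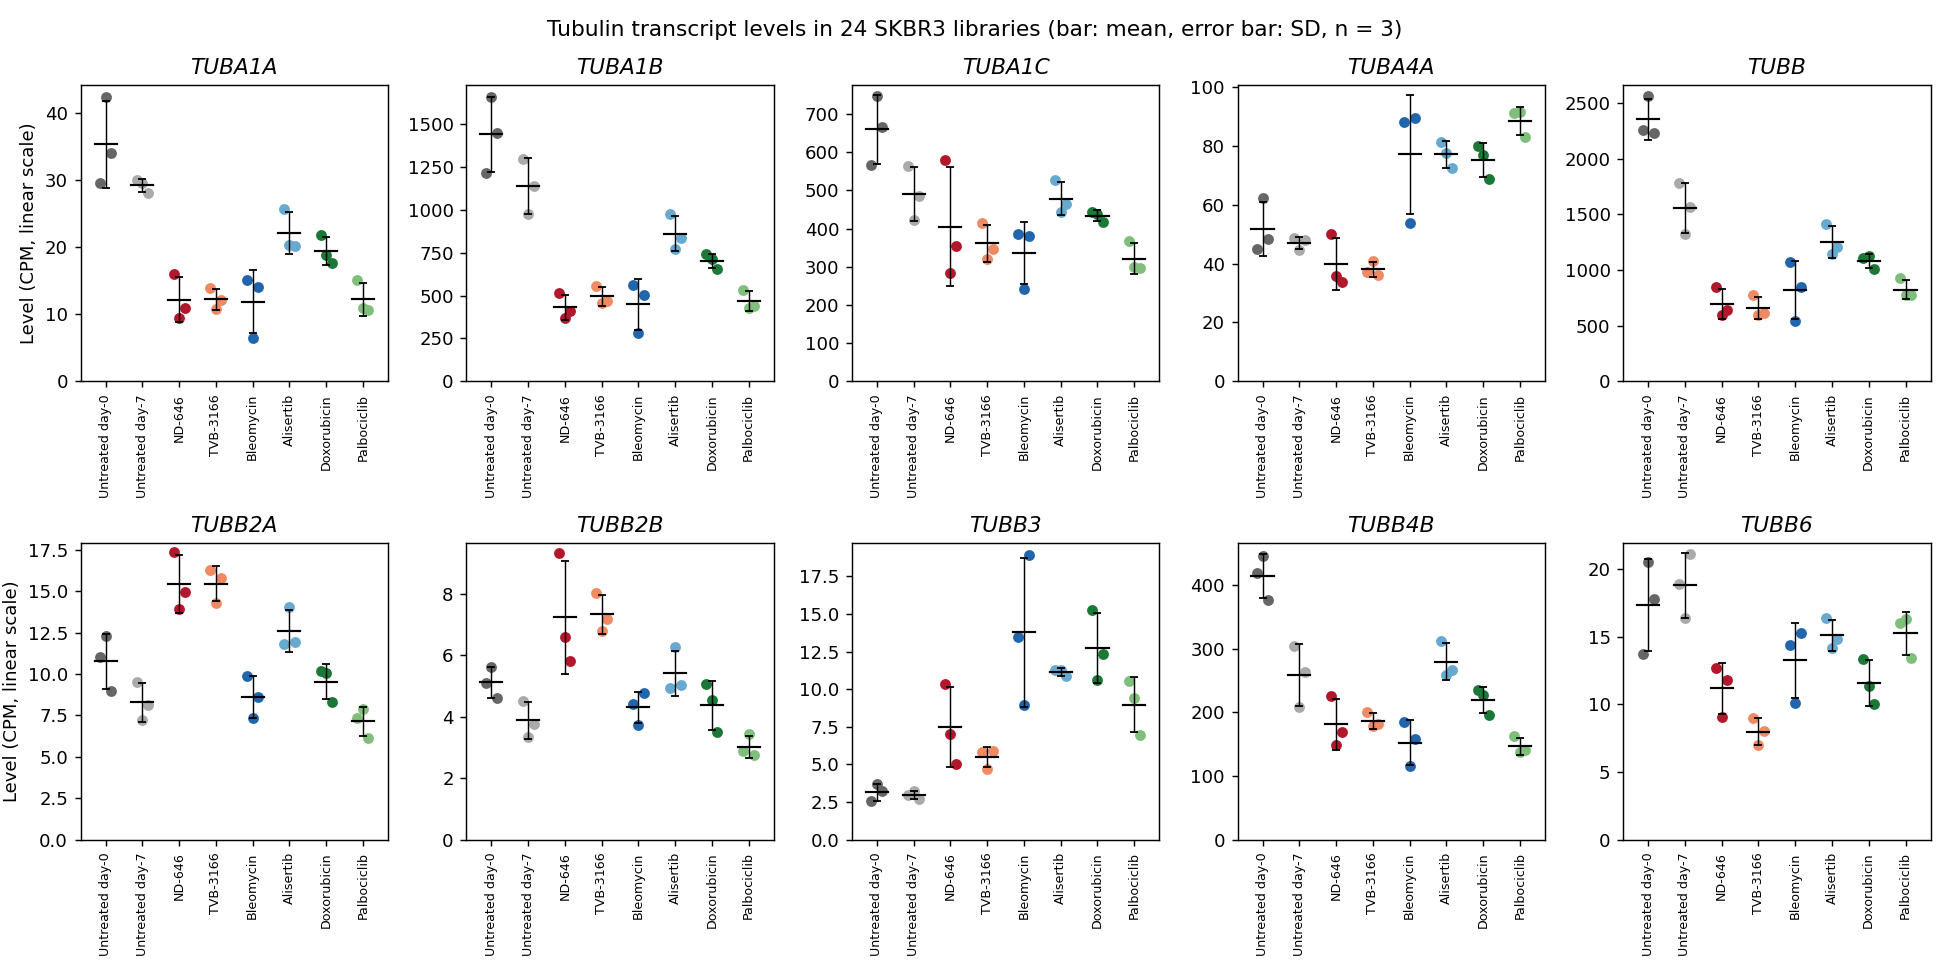
Level of each tubulin gene in the 24 libraries, in CPM on a linear axis that starts at 0, with 1 point per library, the mean as a short horizontal line and the SD (n = 3) as an error bar. TUBB falls from a mean of 2352 CPM in day-0 cells to 661 with TVB-3166, while TUBB3 rises from 3.14 to 13.8 with bleomycin.

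Against day-0 cells, 1 member rose and 5 fell in ND-646 cells, where 19.1% of all genes tested were called higher and 18.8% lower. In TVB-3166 cells 3 rose and 7 fell, against 27.4% and 27.7% of all genes. Bleomycin cells had 2 higher and 5 lower members, beside 24.1% and 25.3% of all genes, and alisertib cells 2 higher and 5 lower, beside 17.7% and 19.6%. With doxorubicin 2 rose and 6 fell, where the shares of all genes were 23.7% and 24.8%, and with palbociclib 2 rose and 7 fell, where they were 26% and 27.2%. Over the 10 members the median log2 change was -0.68 in ND-646 cells, -0.99 in TVB-3166 cells, -0.68 in bleomycin cells, -0.34 in alisertib cells, -0.58 in doxorubicin cells and -0.90 in palbociclib cells, whereas the median of all genes tested lay between -0.01 and 0.02. The members' share of lower calls was above that of all genes in each of the 6 comparisons, and their share of higher calls was below or close to it.

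Untreated cells had lower point estimates for most members on day 7 than on day 0. Between these groups no member was called by edgeR, where 0.389% of all genes were called higher and 0.198% lower. At an unadjusted p under 0.05, 5 members were lower and 0 higher, and DESeq2 called 3 lower, TUBB, TUBB4B and TUBA1C. With the replicate number as a block, edgeR called TUBB and TUBB4B lower, and its calls over all genes went from 80 to 1263. The absence of calls thus depended on leaving out the block. The largest differences were -0.67 ± 0.13 (log2 fold change ± SE) for TUBB4B, with an adjusted p from edgeR of 0.0543, and -0.59 ± 0.13 for TUBB, with 0.0651. For both genes, the 3 day-7 libraries lay below the 3 day-0 libraries. TUBB passed the threshold without day-0 replicate 1 (-0.62, adjusted p = 0.0474).

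Against day-7 cells, ND-646 cells had 3 members higher and 4 lower, where 17.2% and 17.1% of all genes were called in each direction. TVB-3166 cells had 3 higher and 7 lower (all genes 25.4% and 26.1%), bleomycin cells 2 higher and 6 lower (22.4% and 23.2%), and palbociclib cells 2 higher and 5 lower (22% and 22.9%). Doxorubicin cells had 2 higher and 4 lower, beside 21.9% and 21.5% of all genes. In alisertib cells 3 rose and 2 fell, beside 9.55% and 9.49%. Same-numbered replicates deviated together in that comparison, and with the replicate number as a block TUBB (adjusted p = 0.00383) and TUBB6 (adjusted p = 0.0360) were also lower, giving 4 lower members. The alisertib count depended on single libraries, being 2 without alisertib replicate 2 or day-7 replicate 3, 3 without alisertib replicate 3 or day-7 replicate 1, and 7 without day-7 replicate 2. The ND-646 counts, 6 against day 0 and 7 against day 7, were 8 and 10 without ND-646 replicate 1.

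**Figure D2:**
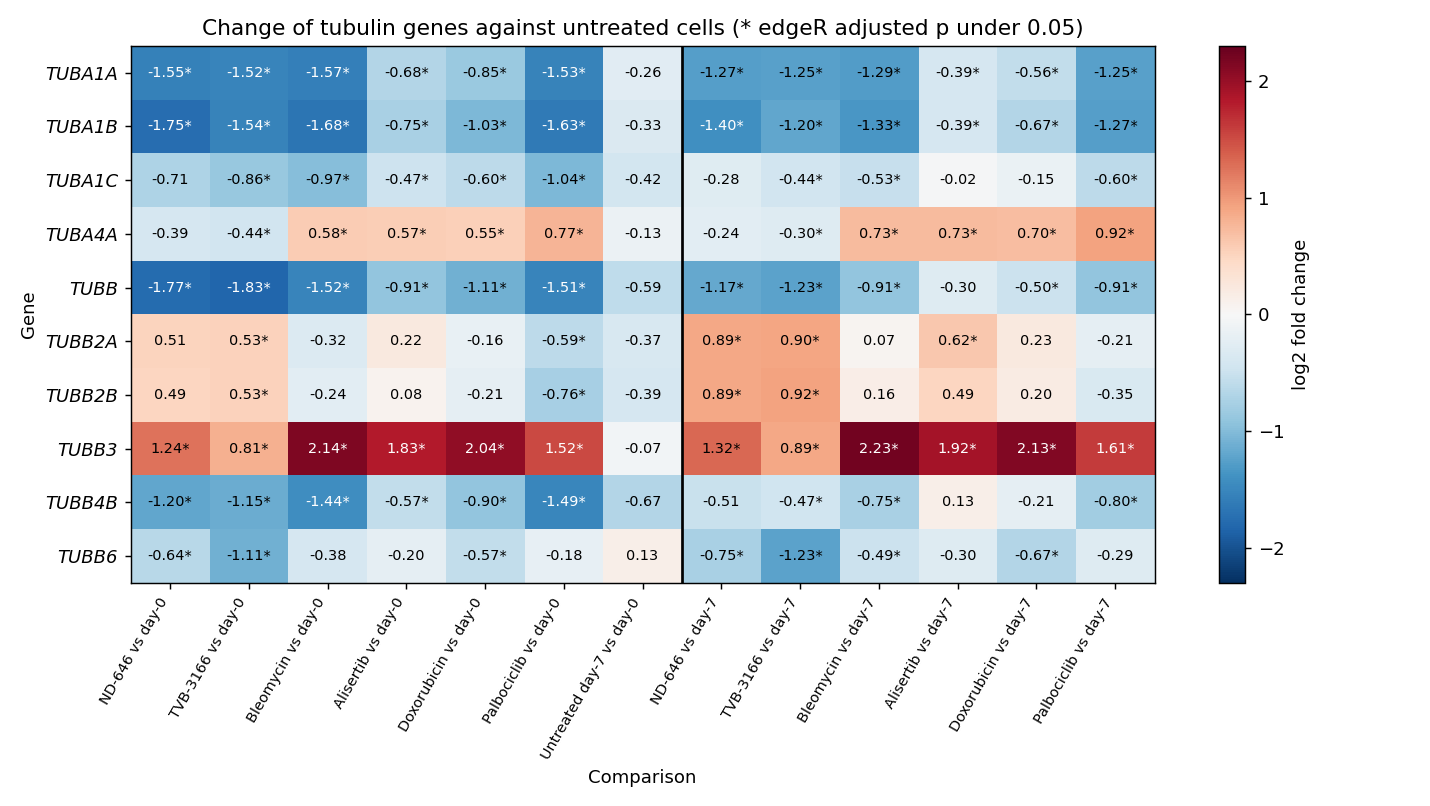
Log2 fold change of each tubulin gene (rows) in each drug group and in day-7 cells against untreated cells (columns, day-0 references left of the line and day-7 references right of it), as a colour scale from blue for lower to red for higher, with an asterisk where edgeR's adjusted p was under 0.05. TUBB3 carries the highest value, 2.23 in bleomycin against day-7 cells, and TUBB the lowest, -1.83 in TVB-3166 against day-0 cells.

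TUBA1B, the most abundant alpha isotype, had 1218, 1657 and 1448 CPM in the day-0 libraries and 1299, 975 and 1142 in the day-7 libraries. The ND-646 libraries had 512, 371 and 409.8, the TVB-3166 libraries 557, 458 and 469.8, the bleomycin libraries 564, 281 and 501 and the palbociclib libraries 533, 430.1 and 437. Every library of these 4 groups lay below every untreated library. Alisertib left 977, 774 and 835 CPM and doxorubicin 739.9, 711 and 656, also below all day-0 libraries, and the highest alisertib library stood just above the lowest day-7 library. The level was 3.36-fold lower than on day 0 in ND-646 cells (log2 -1.75 ± 0.20, adjusted p = 0.000296), 3.21-fold lower with bleomycin and 2.90-fold lower with TVB-3166 (log2 -1.54 ± 0.14, adjusted p = 6.51e-06). It was 3.09-fold lower with palbociclib, 2.04-fold with doxorubicin and 1.68-fold with alisertib, and all 6 calls held without any single library. Against day-7 cells the log2 fold change was -1.40 in ND-646 cells and -0.39 in alisertib cells. The alisertib value against day 7 (adjusted p = 0.0385) lost its call without alisertib replicate 2 (-0.32, adjusted p = 0.134) or 3 (-0.36, adjusted p = 0.134) and without day-7 replicate 1 (-0.29, adjusted p = 0.0972) or 3 (-0.38, adjusted p = 0.108).

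TUBB, the main beta isotype of dividing cells, had the largest fall of the members, in TVB-3166 cells. The day-0 libraries had 2261, 2561 and 2235 CPM and the day-7 libraries 1780, 1326 and 1567. The level was 846, 592 and 642 in ND-646 libraries, 773, 594 and 615 in TVB-3166 libraries, 1070, 544 and 845 in bleomycin libraries and 924, 772 and 773 in palbociclib libraries. Alisertib gave 1416, 1141 and 1205 and doxorubicin 1106, 1129 and 1008. No drug-treated library overlapped the day-0 range, and bleomycin replicate 2 was the lowest of all 24. TUBB was 3.55-fold lower than on day 0 in TVB-3166 cells (log2 -1.83 ± 0.14, adjusted p = 1.88e-06) and 3.41-fold lower in ND-646 cells (log2 -1.77 ± 0.20, adjusted p = 0.000286). The fall was 2.86-fold with bleomycin, 2.86-fold with palbociclib, 2.16-fold with doxorubicin and 1.88-fold with alisertib. Against day-7 cells TUBB stayed lower in 5 groups, by 2.35-fold in TVB-3166 cells and 1.42-fold in doxorubicin cells. In alisertib cells the log2 value was -0.30 ± 0.12 (adjusted p = 0.0927), which passed without alisertib replicate 1 (-0.39, adjusted p = 0.0487) or day-7 replicate 2 (-0.41, adjusted p = 0.0239).

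TUBB4B, the other widely expressed beta isotype, had 420.0, 446 and 377 CPM in day-0 libraries, 305, 208 and 264 in day-7 libraries, 226, 148 and 169.5 in ND-646 libraries and 201, 178 and 181 in TVB-3166 libraries. Palbociclib libraries, at 162, 138 and 140.5, and bleomycin libraries, at 185, 115 and 158, were the lowest groups. Against day-0 cells TUBB4B was lower in 6 of 6 drug groups, from 1.49-fold with alisertib to 2.82-fold with palbociclib (log2 -1.49 ± 0.11, adjusted p = 3.65e-06). Against day-7 cells it was called lower with TVB-3166 (-0.47 ± 0.12), bleomycin (-0.75 ± 0.18) and palbociclib (-0.80 ± 0.13). ND-646 gave -0.51 ± 0.20 (adjusted p = 0.0766), and TUBB4B passed without ND-646 replicate 1 (-0.71, adjusted p = 0.00167), the ND-646 library with the highest TUBB4B level. Doxorubicin gave -0.21 ± 0.12, which passed without day-7 replicate 2 (-0.36, adjusted p = 0.0148), and alisertib gave 0.13 ± 0.12.

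TUBA1A, an alpha isotype prominent in developing neurons, was present at 29.5, 42.4 and 34.04 CPM on day 0 and 29.9, 29.6 and 28.1 on day 7. It was at 15.9, 9.51 and 10.98 in ND-646 libraries, 13.9, 10.8 and 12.1 in TVB-3166 libraries, 15.1, 6.45 and 14.05 in bleomycin libraries and 15.1, 10.99 and 10.6 in palbociclib libraries. Alisertib libraries (25.7, 20.4 and 20.1) and doxorubicin libraries (21.8, 18.9 and 17.6) lay between, and no drug-treated library reached an untreated one. The fall against day-0 cells was 2.97-fold with bleomycin, 2.93-fold with ND-646 (log2 -1.55 ± 0.23, adjusted p = 0.00103), 2.89-fold with palbociclib and 2.87-fold with TVB-3166 (log2 -1.52 ± 0.15, adjusted p = 1.33e-05). It was 1.80-fold with doxorubicin and 1.61-fold with alisertib. TUBA1A was also called lower in all 6 comparisons with day-7 cells. The smallest of these, alisertib (-0.39, adjusted p = 0.0274), lost its call without alisertib replicate 2 (-0.34, adjusted p = 0.101) or 3 (-0.33, adjusted p = 0.121) and without day-7 replicate 1 (-0.38, adjusted p = 0.0524) or 3 (-0.42, adjusted p = 0.0690).

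TUBA1C, the second most abundant alpha isotype, fell less than its neighbours TUBA1A and TUBA1B in point estimate in each of the 6 drug groups against day-0 cells, a difference between genes that was not tested. The day-0 libraries had 566, 747 and 667 CPM and the day-7 libraries 563, 423 and 486. The ND-646 libraries had 580.0, 282 and 353, of which replicate 1 lay within the untreated range and the other two below it. TVB-3166 libraries had 416, 321 and 347 and palbociclib libraries 367, 299.6 and 297. The log2 fold change against day-0 cells was -1.04 ± 0.13 with palbociclib, -0.97 ± 0.19 with bleomycin, -0.86 ± 0.13 with TVB-3166, -0.60 ± 0.12 with doxorubicin and -0.47 ± 0.12 with alisertib, all 5 called. ND-646 gave -0.71 ± 0.26 (adjusted p = 0.0585) with all libraries, and TUBA1C passed without ND-646 replicate 1 (-1.06, adjusted p = 0.000373), as it did against day-7 cells (-0.63, adjusted p = 0.00227, from -0.28 with all libraries). The alisertib call was lost without alisertib replicate 2 (-0.42, adjusted p = 0.0565) or 3 (-0.45, adjusted p = 0.0561) or day-0 replicate 2 (-0.36, adjusted p = 0.0570). Against day-7 cells TUBA1C was called lower with TVB-3166 (-0.44), bleomycin (-0.53) and palbociclib (-0.60), and the bleomycin call was lost without bleomycin replicate 2 (-0.35, adjusted p = 0.0590), day-7 replicate 1 (-0.42, adjusted p = 0.121) or day-7 replicate 3 (-0.54, adjusted p = 0.0813). With doxorubicin it was -0.15 against day 7, and passed without day-7 replicate 2 (-0.27, adjusted p = 0.0472).

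TUBB3, the class III beta isotype that marks neurons and is found in some carcinomas, was the only member higher in all 6 drug groups against both controls. It was scarce in untreated cells, with 2.54, 3.68 and 3.20 CPM on day 0 and 2.99, 3.24 and 2.67 on day 7. Bleomycin libraries had 13.5, 8.97 and 18.9 CPM, doxorubicin libraries 15.2, 10.6 and 12.4, alisertib libraries 11.3, 11.3 and 10.9 and palbociclib libraries 10.5, 9.43 and 6.95. The FASTIS groups were lower, with 10.3, 7.01 and 5.05 after ND-646 and 5.82, 4.71 and 5.88 after TVB-3166, but each of these libraries still lay above every untreated library. TUBB3 was 4.41-fold higher than on day 0 with bleomycin (log2 2.14 ± 0.28, adjusted p = 0.000302), 4.10-fold with doxorubicin (log2 2.04 ± 0.20, adjusted p = 5.18e-05) and 3.55-fold with alisertib (log2 1.83 ± 0.17, adjusted p = 0.000109). It was 2.87-fold higher with palbociclib, 2.36-fold with ND-646 (adjusted p = 0.0112) and 1.75-fold with TVB-3166 (adjusted p = 0.00566). No single library carried any of these 12 calls, and without ND-646 replicate 1 the ND-646 value was 0.94, adjusted p = 0.00896. Day-7 and day-0 cells gave -0.07 ± 0.21.

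TUBA4A was the alpha isotype whose direction parted the drugs. Its level was 44.96, 62.3 and 48.4 CPM on day 0 and 48.7, 44.6 and 47.9 on day 7. Palbociclib libraries had 91.03, 91.6 and 83.1, alisertib libraries 81.3, 77.5 and 72.5, doxorubicin libraries 80.04, 76.8 and 68.8 and bleomycin libraries 88.2, 53.7 and 89.5. ND-646 libraries had 50.2, 35.9 and 33.7 and TVB-3166 libraries 37, 40.9 and 36.2. Thus the palbociclib, alisertib and doxorubicin libraries all stood above the untreated range, bleomycin replicate 2 fell inside the day-0 range, and the TVB-3166 libraries all stood below both untreated groups. TUBA4A was higher than on day 0 by 1.71-fold with palbociclib (log2 0.77 ± 0.12, adjusted p = 0.000424), 1.48-fold with alisertib, 1.46-fold with doxorubicin and 1.49-fold with bleomycin (adjusted p = 0.0354), and lower by 1.36-fold with TVB-3166 (log2 -0.44 ± 0.13, adjusted p = 0.0118). ND-646 gave -0.39 ± 0.20 (adjusted p = 0.157), and passed without ND-646 replicate 1 (-0.58, adjusted p = 0.00943).

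The 4 increases of TUBA4A were also called against day-7 cells, with log2 values of 0.92 ± 0.08 for palbociclib, 0.73 ± 0.17 for bleomycin, 0.73 ± 0.08 for alisertib and 0.70 ± 0.09 for doxorubicin, and none of these was lost without a single library. The bleomycin call against day 0 was lost without bleomycin replicate 1 (0.47, adjusted p = 0.0934) or 3 (0.47, adjusted p = 0.130) and without day-0 replicate 1 (0.47, adjusted p = 0.101) or 3 (0.54, adjusted p = 0.101). The decrease with TVB-3166 was lost against day 0 without day-0 replicate 2 (-0.29, adjusted p = 0.0515) or TVB-3166 replicate 3 (-0.41, adjusted p = 0.0534), and against day 7 (log2 -0.30) without TVB-3166 replicate 3 (-0.27, adjusted p = 0.0532). Against day 7, the ND-646 value of -0.24 passed without ND-646 replicate 1 (-0.44, adjusted p = 0.00310).

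TUBB2A and TUBB2B, the near-identical class II beta isotypes best known from brain, had their highest levels in FASTIS cells. TUBB2A was at 11.04, 12.3 and 8.997 CPM on day 0 and 9.53, 7.21 and 8.11 on day 7, at 17.3, 13.9 and 14.97 with ND-646 and at 16.3, 14.3 and 15.8 with TVB-3166. All 6 FASTIS libraries lay above all 6 untreated libraries. The other groups had 11.8, 14.1 and 11.96 (alisertib), 10.2, 10.1 and 8.31 (doxorubicin), 9.85, 7.31 and 8.62 (bleomycin) and 7.35, 7.91 and 6.15 (palbociclib) CPM. TUBB2B had 5.09, 5.63 and 4.62 CPM on day 0, 4.52, 3.33 and 3.77 on day 7, 9.31, 6.58 and 5.82 with ND-646, 8.03, 6.77 and 7.18 with TVB-3166 and 2.89, 3.43 and 2.75 with palbociclib. Its FASTIS libraries also stood above all untreated libraries, and its palbociclib libraries below all day-0 libraries.

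Against day-7 cells TUBB2A was 1.86-fold higher with ND-646 (log2 0.89 ± 0.17, adjusted p = 0.00530), 1.87-fold with TVB-3166 (adjusted p = 0.000235) and 1.53-fold with alisertib (adjusted p = 0.0123). TUBB2B was 1.86-fold higher with ND-646 (log2 0.89 ± 0.24, adjusted p = 0.0214) and 1.89-fold with TVB-3166 (adjusted p = 0.000822). The FASTIS increases were smaller against day-0 cells. With TVB-3166 the log2 fold change was 0.53 ± 0.14 for TUBB2A and 0.53 ± 0.16 for TUBB2B, both called. With ND-646 it was 0.51 ± 0.18 (adjusted p = 0.0550) for TUBB2A and 0.49 ± 0.23 (adjusted p = 0.128) for TUBB2B. With palbociclib both were lower than on day 0, by 1.51-fold for TUBB2A (adjusted p = 0.0115) and 1.69-fold for TUBB2B (adjusted p = 0.00627). Several of these calls needed all libraries. TUBB2A was lost in palbociclib without day-0 replicate 2 (-0.48, adjusted p = 0.0583) or palbociclib replicate 3 (-0.50, adjusted p = 0.0524), and in alisertib against day 7 without alisertib replicate 2 (0.53, adjusted p = 0.0556) or day-7 replicate 3 (0.60, adjusted p = 0.0520). TUBB2B was lost in TVB-3166 against day 0 without day-0 replicate 3 (0.46, adjusted p = 0.0535) or TVB-3166 replicate 1 (0.45, adjusted p = 0.0625), and in ND-646 against day 7 without day-7 replicate 2 (0.79, adjusted p = 0.0816) or 3 (0.87, adjusted p = 0.0865).

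TUBB6, the class V beta isotype of non-neuronal tissues, was at 13.7, 20.5 and 17.8 CPM on day 0 and 18.9, 16.4 and 21.1 on day 7. TVB-3166 libraries, at 8.96, 6.96 and 8.0, were the lowest group, followed by ND-646 libraries at 12.7, 9.04 and 11.8 and doxorubicin libraries at 13.4, 11.3 and 10.03. Bleomycin, alisertib and palbociclib libraries spanned 10.1 to 16.3 CPM. Against day-0 cells TUBB6 fell by 2.16-fold with TVB-3166 (log2 -1.11 ± 0.17, adjusted p = 0.000244), 1.56-fold with ND-646 (adjusted p = 0.0392) and 1.48-fold with doxorubicin (adjusted p = 0.0192). Against day-7 cells it was called lower with TVB-3166 (-1.23 ± 0.14), ND-646 (-0.75 ± 0.18), doxorubicin (-0.67 ± 0.14) and bleomycin (-0.49 ± 0.17). The TVB-3166 calls held without any single library. The ND-646 call of TUBB6 against day 0 was lost without day-0 replicate 2 (-0.51, adjusted p = 0.156) or 3 (-0.63, adjusted p = 0.107) and without ND-646 replicate 2 (-0.51, adjusted p = 0.132) or 3 (-0.68, adjusted p = 0.0731), and against day 7 without day-7 replicate 1 (-0.75, adjusted p = 0.0518) or 3 (-0.66, adjusted p = 0.0726). The doxorubicin call against day 0 was lost without day-0 replicate 2 (-0.43, adjusted p = 0.0785) or doxorubicin replicate 2 (-0.55, adjusted p = 0.0531) or 3 (-0.47, adjusted p = 0.0786). The bleomycin call against day 7 was lost without bleomycin replicate 2 (-0.33, adjusted p = 0.0958) or day-7 replicate 1 (-0.49, adjusted p = 0.103) or 3 (-0.40, adjusted p = 0.165). Without day-7 replicate 2, TUBB6 also passed in alisertib cells (-0.40, adjusted p = 0.0310) and palbociclib cells (-0.38, adjusted p = 0.0283).

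The make-up of tubulin mRNA differed between the groups. Levels were divided by transcript length to compare genes, as CPM per kilobase of the canonical transcript, and expressed as a share of the alpha or beta members. In day-0 cells TUBA1B made up 75.95 ± 0.191% of alpha-tubulin mRNA, TUBA1C 20.1 ± 0.270%, TUBA4A 2.17 ± 0.133% and TUBA1A 1.81 ± 0.0794% (mean ± SD, n = 3). Per length, TUBA1B held 61.6 ± 4.25% with ND-646, 62.3 ± 2.44% with bleomycin and 63.5 ± 0.755% with palbociclib. TUBA4A reached 9.64 ± 0.950% with palbociclib and 8.65 ± 0.535% with bleomycin, against 4.50 ± 0.441% with ND-646 and 4.10 ± 0.621% with TVB-3166. TUBA1C reached 32.3 ± 4.39% with ND-646 and 27.9 ± 0.830% with TVB-3166. In both FASTIS groups the TUBA4A share was thus above that of day-0 cells although its level was not.

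Among the beta genes, per length, TUBB made up 76.6 ± 0.768% in day-0 cells and TUBB4B 21.7 ± 0.852%, while TUBB6 (0.753 ± 0.119%), TUBB2A (0.544 ± 0.0517%), TUBB2B (0.218 ± 0.00747%) and TUBB3 (0.150 ± 0.0214%) were minor. The TUBB share was lowest in FASTIS cells, at 65.1 ± 1.77% with TVB-3166 and 66.4 ± 0.503% with ND-646, where TUBB4B took 29.8 ± 1.54% and 27.9 ± 0.725%. TUBB2A took 2.39 ± 0.181% with TVB-3166 and 2.32 ± 0.190% with ND-646, against 1.23 ± 0.212% with bleomycin, the highest of the other groups. TUBB3 took 1.83 ± 0.507% with bleomycin, 1.26 ± 0.228% with doxorubicin and 0.799 ± 0.0905% with TVB-3166. In every group TUBA1B and TUBB remained the leading isotypes, with TUBA1C and TUBB4B second. Shares are descriptions and were not tested.

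**Figure D3:**
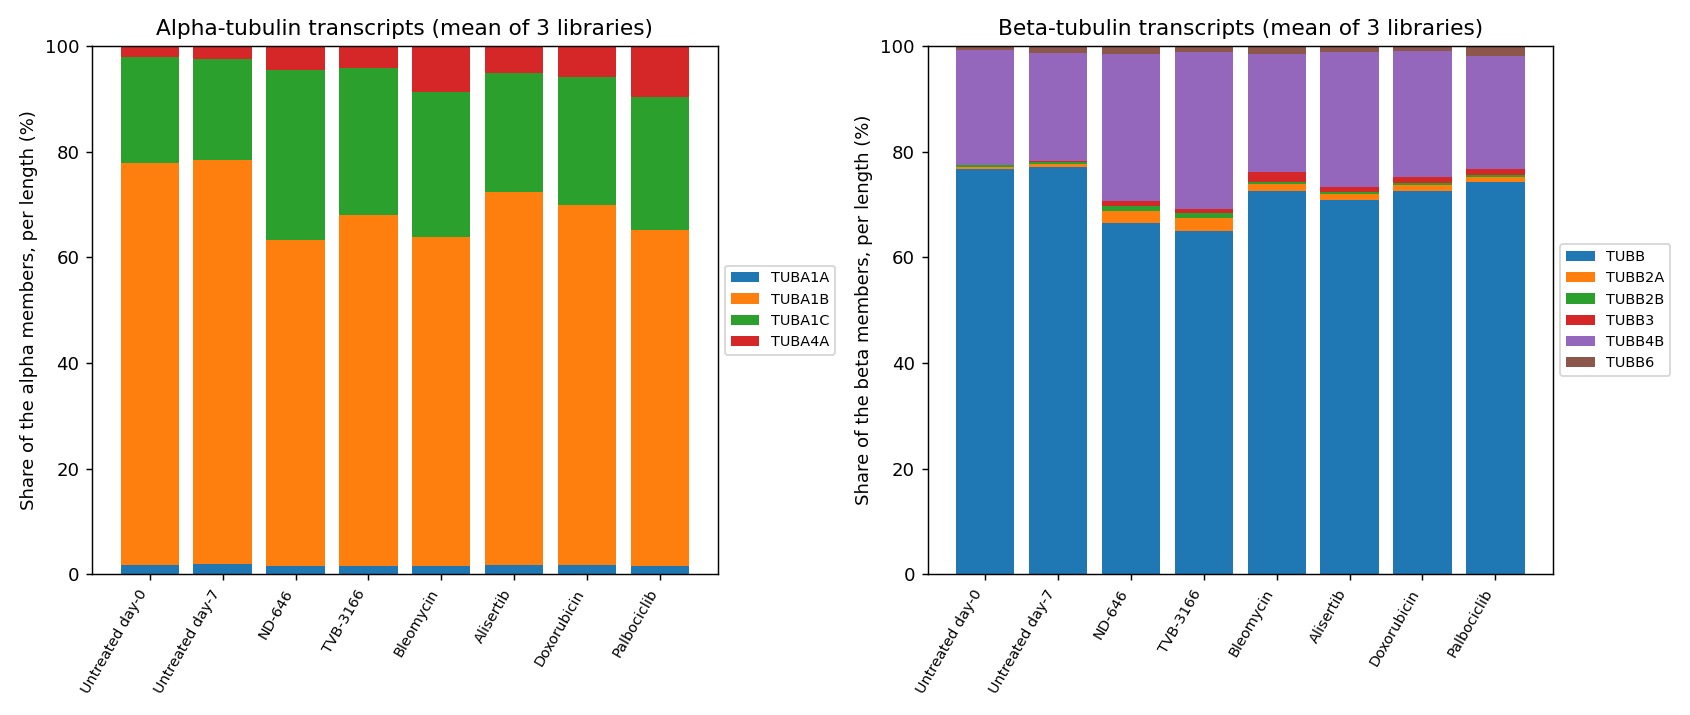
Share of each isotype in the alpha members (left) and beta members (right), in percent of CPM per kilobase, as stacked bars that are the mean of 3 libraries per group on an axis from 0 to 100%. TUBB and TUBA1B hold the largest part of every bar, and TUBA4A widens from 2.17% in day-0 cells to 9.64% with palbociclib.

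The comparison of FASTIS with the other TIS states was tested directly, as the mean of ND-646 and TVB-3166 cells minus the mean of bleomycin, alisertib, doxorubicin and palbociclib cells in 1 fit of 18 libraries. TUBB2A and TUBB2B were higher in FASTIS, and TUBA1B, TUBA4A, TUBB, TUBB3 and TUBB6 were lower, which made 2 members higher and 5 lower where 26.1% and 24% of all genes were called. TUBA4A differed most, 2.02-fold lower in FASTIS (log2 -1.01 ± 0.11, adjusted p = 7.49e-07), and the highest of the 6 FASTIS libraries lay below the lowest of the 12 others. TUBB3 was 1.79-fold lower (log2 -0.84 ± 0.17, adjusted p = 0.000460), although it was higher than in untreated cells in both sets. TUBB2A was 1.68-fold higher (log2 0.75 ± 0.09, adjusted p = 2.29e-06) and TUBB2B 1.75-fold higher (log2 0.81 ± 0.12, adjusted p = 2.34e-05), and the libraries of the 2 sets overlapped for both genes and for all members but TUBA4A. TUBB6 was 1.44-fold lower (log2 -0.53 ± 0.11), TUBB 1.43-fold lower (log2 -0.52 ± 0.12) and TUBA1B 1.28-fold lower (log2 -0.36 ± 0.12, adjusted p = 0.0195). These last differences are averages over unlike groups: bleomycin and palbociclib cells had TUBA1B levels close to those of FASTIS cells and alisertib and doxorubicin cells higher ones. TUBA1C (-0.0039 ± 0.13), TUBB4B (-0.06 ± 0.10) and TUBA1A (-0.36 ± 0.16, adjusted p = 0.0643) were not called. The TUBA1B call was lost without ND-646 replicate 2 (-0.31, adjusted p = 0.0549) or TVB-3166 replicate 2 (-0.33, adjusted p = 0.0527), and TUBA1A passed without bleomycin replicate 2 (-0.44, adjusted p = 0.00636) or ND-646 replicate 1 (-0.49, adjusted p = 0.0135).

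**Figure D4:**
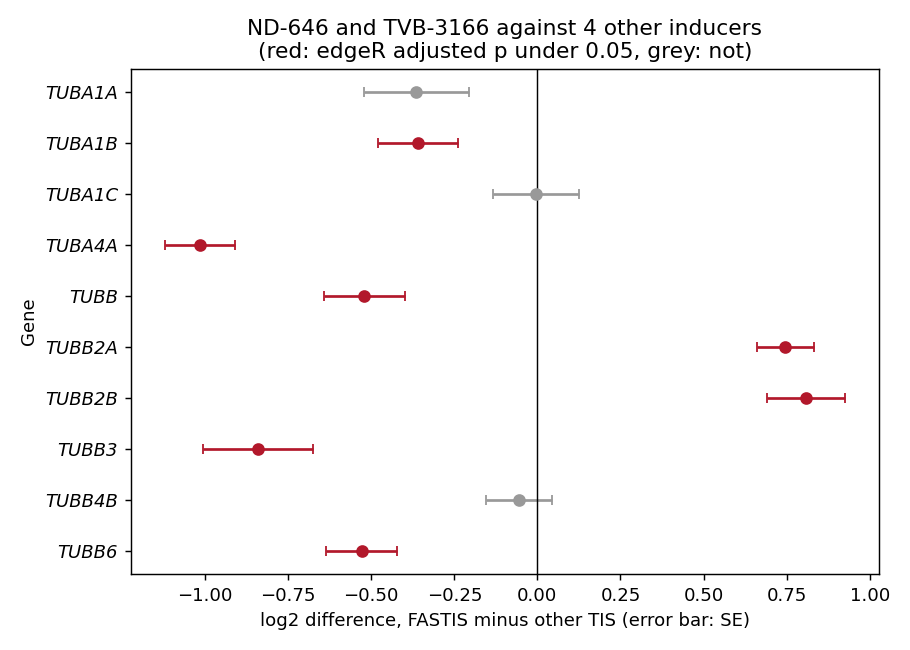
Log2 difference of each tubulin gene between FASTIS cells (ND-646 and TVB-3166) and cells under the 4 other inducers, with the SE as an error bar, in red where edgeR's adjusted p was under 0.05 and in grey otherwise. TUBB2A and TUBB2B lie to the right of 0 and TUBA4A, at -1.01, farthest to the left.

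ND-646 and TVB-3166 act on successive enzymes of fatty acid synthesis, ACC and FASN, and were given at the same dose and time, so their groups were compared directly. No member was called between them, where 0.52% of all genes were called higher in TVB-3166 cells and 0.198% lower. By DESeq2 0 members were called as well, and at an unadjusted p under 0.05 there was 1, TUBB6, which was lower in TVB-3166 cells by a log2 value of -0.48 (95% interval -0.92 to -0.04, adjusted p = 0.289). The other members had intervals that include 0, which does not show that the compounds act alike. All intervals come from a fit without a replicate block, although same-numbered replicates deviated together in this comparison. TUBB2A differed by 0.01 (95% interval -0.33 to 0.34), TUBB by -0.06 (-0.48 to 0.35), TUBB4B by 0.05 (-0.34 to 0.43) and TUBA4A by -0.06 (-0.46 to 0.33). The widest intervals were those of TUBB3, -0.44 (-1.07 to 0.19), and TUBA1C, -0.16 (-0.76 to 0.44). TUBA1A gave 0.02 (-0.49 to 0.52), TUBA1B 0.21 (-0.16 to 0.57) and TUBB2B 0.03 (-0.47 to 0.52).

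Isotypes with near-identical sequence may share reads. Of all 150-base windows of the canonical transcript, 48.7% of those of TUBB2A and 41.6% of those of TUBB2B also occur in another tubulin gene or pseudogene, as do 19.1% for TUBA1B, 8.01% for TUBA1A and 7.22% for TUBA1C. For TUBA4A, TUBB4B and TUBB6 no window was shared, for TUBB 2.66% were (with the pseudogene TUBBP1) and for TUBB3 2.31% were (with TUBB2A). How reads that match several genes were counted is not given in the sources used here, so the split between TUBB2A and TUBB2B, and among the TUBA1 genes, is uncertain. Summed counts avoid that split. TUBB2A and TUBB2B together were higher, with log2 fold changes of 0.91 ± 0.13 (adjusted p = 0.000137) with TVB-3166 and 0.89 ± 0.17 (adjusted p = 0.00545) with ND-646 against day-7 cells, and of 0.77 ± 0.09 (adjusted p = 1.89e-06) in FASTIS against the other inducers. TUBA1A, TUBA1B and TUBA1C together were lower, with -1.34 ± 0.24 (adjusted p = 0.00262) with ND-646 and -1.29 ± 0.14 (adjusted p = 2.58e-05) with TVB-3166 against day-0 cells. In alisertib against day-7 cells this sum gave -0.27 ± 0.11 (adjusted p = 0.116) and in FASTIS against the other inducers -0.21 ± 0.12 (adjusted p = 0.172), neither called, although TUBA1A and TUBA1B were called on their own in the first and TUBA1B in the second.

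Several members also overlap another gene, and whether strand was used in counting is not given. TUBA1A and TUBA1C overlap on opposite strands. TUBB overlaps MDC1, whose log2 fold change against day 0 was -1.14 with TVB-3166 and -0.06 with alisertib, where TUBB had -1.83 and -0.91. TUBA4A overlaps STK16, which gave -0.08 with palbociclib and 0.24 with TVB-3166, the reverse in sign of TUBA4A in both. TUBB2A overlaps BPHL, which was 0.78 with TVB-3166 (adjusted p = 0.00238) and 0.71 with ND-646 (adjusted p = 0.0360), the same direction as TUBB2A, and their separate parts were not tested. TUBB2B overlaps PSMG4, which gave 0.03 with TVB-3166 and 0.22 with ND-646, neither called. TUBB6 overlaps AFG3L2, which was lower with TVB-3166 (-0.38). TUBB3 lies in a readthrough locus with MC1R, which was 1.26 with TVB-3166, 0.93 with bleomycin and 0.52 with alisertib against day 0. These are in the same direction as TUBB3, which had 0.81 with TVB-3166 and 2.14 with bleomycin. The separate parts of MC1R and TUBB3 were not tested.

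The promoters are shown for TUBA1A and TUBB4B, from the group of members that fell together, as the 250 bases before the RefSeq start (GRCh38.p14), 5′ to 3′ along the gene. Capitals mark CCAAT on either strand (ATTGG on the other) and, in TUBB4B, TTTGAA, the cell cycle homology region (CHR) motif.
TUBA1A: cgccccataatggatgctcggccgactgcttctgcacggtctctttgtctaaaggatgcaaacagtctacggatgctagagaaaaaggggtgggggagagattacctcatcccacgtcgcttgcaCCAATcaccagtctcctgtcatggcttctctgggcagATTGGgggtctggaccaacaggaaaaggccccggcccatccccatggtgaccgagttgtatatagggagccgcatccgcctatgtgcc
TUBB4B: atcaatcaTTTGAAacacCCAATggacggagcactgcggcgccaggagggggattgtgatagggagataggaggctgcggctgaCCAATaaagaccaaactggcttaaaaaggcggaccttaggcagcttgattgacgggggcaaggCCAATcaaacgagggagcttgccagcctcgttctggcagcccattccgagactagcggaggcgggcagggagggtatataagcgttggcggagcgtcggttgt
The TUBA1A window is chr12:49189081-49189330 on the minus strand and that of TUBB4B chr9:137241037-137241286 on the plus strand. RefSeq lists 15 promoters for the 10 members. CCAAT was found in 9 of these 15, from 7 members, which include TUBB2B and TUBB3 beside members that fell, and in 32.0% of 35116 promoters of all genes. TTTGAA was found in 3 of 15 (20.0%), against 13.3% of all promoters, and TATAAA in 1 of 15 (6.67%), that of TUBB2A, against 10.7%. None of these 3 motifs was found for TUBA1B, which also fell. All 3 motifs were searched on both strands. These are matches of letters, not measured sites, and related genes share sequence. Promoters of the same gene are not independent either: some TUBA1C windows overlap and hold the same CCAAT.

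Some genes for the folding of tubulin were called lower in every drug group against day 0. The counts of the following lists against day 0 stand beside the shares of all genes given above, which ran from 17.7% to 27.4% for higher calls and from 18.8% to 27.7% for lower calls. Of 20 genes of the CCT chaperonin, prefoldin and the tubulin cofactors, 0 were called higher in any drug group against day 0 by edgeR or DESeq2, also 0 at an unadjusted p under 0.05, and 8 were lower with ND-646, 14 with TVB-3166, 14 with bleomycin, 13 with alisertib, 19 with doxorubicin and 16 with palbociclib, and the median over the list was -0.40 (log2) with ND-646 and -0.68 with TVB-3166. Against day 7, the lower calls of this list were 3 with ND-646, where 17.1% of all genes were lower, 15 with TVB-3166, 9 with bleomycin, 9 with alisertib, 15 with doxorubicin and 14 with palbociclib, and 1 gene, the prefoldin subunit PFDN4, was higher, with bleomycin (log2 0.60, adjusted p = 0.00622). CCT5, a chaperonin subunit, was -0.91 with ND-646 and -0.98 with TVB-3166, CCT2 -0.80 and -0.84, CCT7 -0.81 and -0.86, and TCP1, which gave the chaperonin its other name, -0.66 and -0.95. Of 17 genes of the gamma-tubulin ring complex and augmin, which start new microtubules, 12 were lower and 1 higher with ND-646, 13 and 2 with TVB-3166, 13 and 0 with bleomycin, 8 and 2 with alisertib, 12 and 0 with doxorubicin and 12 and 1 with palbociclib. HAUS8, an augmin subunit, was -1.69 with ND-646 and -1.42 with TVB-3166, HAUS1 -1.32 and -1.38, HAUS7 -1.16 and -1.38, and MZT1, a ring complex subunit, -1.30 and -0.93. Of 5 other tubulin genes in the table, TUBG1, the gamma-tubulin of centrosomes, was -1.20 with ND-646 and -1.05 with TVB-3166, and TUBE1, epsilon-tubulin, was 0.82 and 0.88. Over those 5, 1 rose and 1 fell with each FASTIS drug, 0 rose and 1 fell with bleomycin, alisertib and doxorubicin each, and 1 rose and 2 fell with palbociclib.

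Of 12 destabilising and severing proteins measured, 9 were lower with ND-646, 12 with TVB-3166, 7 with bleomycin, 3 with alisertib, 6 with doxorubicin and 9 with palbociclib. In none of the 6 was any called higher by edgeR or DESeq2, and 0 were higher at an unadjusted p under 0.05. STMN1 (stathmin), which holds free tubulin, was -2.33 with ND-646, -1.51 with TVB-3166, -1.71 with palbociclib and -1.05 with alisertib. The mitotic kinesins KIF18A, KIF18B and KIF2C were -2.89, -2.56 and -2.47 with ND-646, and -1.45, -1.02 and -1.36 with TVB-3166. Of 17 stabilising and plus-end proteins, 3 rose and 5 fell with ND-646, 5 and 7 with TVB-3166, 4 and 4 with bleomycin, 5 and 4 with alisertib, 5 and 4 with doxorubicin and 7 and 6 with palbociclib. Some of these counts lay close to the shares of all genes and others above them, as both did with palbociclib, beside 26% and 27.2% of all genes. The list is short, and nothing particular to it is read from the counts. MAP1B, a microtubule-associated protein of neurons, rose in all 6, by 3.48 with ND-646, 2.69 with TVB-3166 and 4.02 with bleomycin. The spindle proteins TPX2, PRC1 and TACC3 were -2.88, -2.50 and -2.46 with ND-646, and -1.86, -1.33 and -1.62 with TVB-3166.

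Of 16 genes for enzymes that modify tubulin, 2 rose and 5 fell with ND-646, 2 and 6 with TVB-3166, 4 and 3 with bleomycin, 4 and 3 with alisertib, 3 and 5 with doxorubicin and 5 and 4 with palbociclib. Nothing particular to this list is read from its counts either. VASH1, a tubulin detyrosinase, was -1.52 with ND-646 and -1.14 with TVB-3166, both called, and between -0.23 and 0.45 with the other inducers, none called. TTL, the tubulin tyrosine ligase, was -0.94 and -0.87. TTLL3, a glycylase, rose against day 0 in all 6 groups, by 2.06 with ND-646 and 2.91 with TVB-3166, and HDAC6, a tubulin deacetylase, rose by 0.97 and 1.05. Against day 7, TTLL3 was called higher with TVB-3166 (1.95), bleomycin (1.44) and palbociclib (1.46), but not with ND-646 (1.09) or alisertib (1.09). HDAC6 was then called higher with TVB-3166 (0.67), alisertib (0.58) and bleomycin (0.52), but not with ND-646 (0.59) or palbociclib (0.23). Of the 3 genes of autoregulation, TTC5 had a log2 fold change against day 0 of -0.29 ± 0.15 with ND-646 and -0.19 ± 0.11 with TVB-3166, SCAPER -0.01 ± 0.23 and 0.10 ± 0.18, and CNOT11 -0.04 ± 0.13 and 0.02 ± 0.09. For these drugs against day 0, 0 of the 3 passed at an adjusted p by edgeR or DESeq2, or at an unadjusted p under 0.05. TTC5 was called lower against day 0 with bleomycin (-0.47) and doxorubicin (-0.41), and SCAPER higher with alisertib (0.60) and palbociclib (0.55). Against day 7, TTC5 was called lower in all 6 drug groups, with -0.47 with ND-646 (adjusted p = 0.0302), -0.38 with TVB-3166 (adjusted p = 0.00690) and -0.65 with bleomycin (adjusted p = 0.00116).

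Proliferation genes were lower beside the main isotypes. MKI67, TOP2A and CCNB1 were -3.70, -2.31 and -2.59 with ND-646, -2.34, -1.06 and -1.54 with TVB-3166, and -1.15, -0.30 and -0.49 with alisertib against day 0, all called except TOP2A with alisertib. Against day 7 these genes were -3.02, -2.35 and -2.42 with ND-646 and -1.66, -1.11 and -1.37 with TVB-3166, all called. With alisertib against day 7 they were -0.45, -0.33 and -0.30, of which only TOP2A was called (edgeR adjusted p = 0.0461). Their part in the tubulin changes was not tested. Across the 24 libraries, log2 CPM of CCNB1 correlated with that of TUBA1B at r = 0.92, of TUBB at 0.89, of TUBA1A at 0.90 and of TUBB4B at 0.80, and with TUBB3 at -0.36, TUBB2A at -0.26 and TUBA4A at 0.24. These points share 8 groups of 3 and are descriptions. TUBA1A, TUBA1B, TUBA1C, TUBB and TUBB4B formed a block with r between 0.88 and 0.98, TUBB2A and TUBB2B a pair at 0.96, and TUBA4A and TUBB3 were related at 0.67.

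By the same measure over 14068 genes, the 2 genes most like each member in pattern were named. TUBA1B was most like RFC2 (r = 0.979) and GINS2 (r = 0.977), which serve DNA replication, and TUBA1A most like RMI2 (r = 0.955) and SRSF3 (r = 0.951). TUBB was most like the pseudogene TUBBP2 (r = 0.983), which may share its reads, and TOMM40 (r = 0.975). TUBA1C and TUBB4B shared UFD1 (r = 0.936 and r = 0.943), beside DDX39A (r = 0.921) and TMEM199 (r = 0.942). TUBA4A was most like CPA4 (r = 0.910) and LOXL2 (r = 0.888), and TUBB3 like CLDN1 (r = 0.911) and FGF1 (r = 0.910). TUBB2A was most like INHBB (r = 0.903) and LOC648987 (r = 0.876), TUBB2B like LOC648987 (r = 0.892) and KANSL1-AS1 (r = 0.888), and TUBB6 like KCTD17 (r = 0.883) and CCDC28B (r = 0.878).

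Scaling bears on all of these values. With library totals in place of TMM factors, an alternative chosen after the data were seen, the median log2 fold change of all genes moved to between -0.20 (ND-646 against day 7) and 0.13 (alisertib against day 0). Against day 0, the share of called genes that were higher went from 50.5% to 39% with ND-646, from 47.5% to 69.6% with alisertib, from 48.9% to 61% with doxorubicin and from 48.9% to 61.9% with palbociclib, and between day 7 and day 0 from 66.2% to 87.5%. Against day 7 it went from 50.2% to 29.4% with ND-646, from 49.3% to 38.5% with TVB-3166 and from 49.1% to 34.4% with bleomycin, between TVB-3166 and ND-646 from 72.4% to 89.7%, and between FASTIS and the other inducers from 52.1% to 30%. Over the tubulin genes 0 called directions turned, and with bleomycin against day 0 the split went from 2 higher and 5 lower to 1 and 5.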

How the data were processed

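RNA was sequenced from 24 SKBr3 libraries, 8 groups of 3 replicates, and libraries were grouped by their labels. Per the labels the kit was a stranded mRNA kit, whereas the methods of the study name a stranded total RNA kit. The submitters' processing notes list bcl2fastq, HISAT2, StringTie, DESeq2 and the build GRCh37, without versions. The deposited table gives whole-number read counts per gene, not normalized, which the authors made with these tools. Which of them counted, and how it treated strand and multi-mapped reads, is not given in the sources used here. The lowest value in the table is 1, and 0 columns belonged to no sample.

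Counts were filtered with filterByExpr, TMM-scaled and tested with the quasi-likelihood test of edgeR 4.0.16 (R 4.3.3) in the libraries of each of 15 comparisons, with Benjamini-Hochberg adjustment over all genes tested and a threshold of 0.05. Standard errors were derived from the fold change and the F statistic. CPM used TMM factors over all 24 libraries, and correlations used log2 CPM with a prior count of 2. Each value rests on 29405121 to 44316330 counts per library. The fit was tested on simulated counts. Alternatives were DESeq2 1.42.0, RLE factors, no filter, a minimum of 10 counts in every library, all 24 libraries in 1 fit, a fold change of 2 with unadjusted p, a replicate block, summed paralogs, each library left out, and, chosen after the data were seen, library totals. Sequences were read with Python 3.11.15 and Biopython 1.88. The tail sequences of the alpha genes are not reported here.

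The replicate numbers come from the labels. Deviations of same-numbered libraries correlated above 0.1 in every pair in 3 of 15 comparisons (bleomycin and alisertib against day 7, and TVB-3166 against ND-646), which were taken as paired.

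The members and gene lists were chosen with earlier results of these data known. Every member was named. Of each companion list, up to 4 genes with the largest change among those called with ND-646 or TVB-3166 against day 0 were named, with MKI67, TOP2A and CCNB1, the 2 genes most like each member, and the genes that overlap a member. The genes of the autoregulation list, PFDN4 and the keratin, GRB7, ERBB2, EPCAM, ACTA2 and COL1A1 markers were named after their values were seen.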

Additional observations from a re-analysis of the deposited data

Results flagged for a closer look

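The difference between FASTIS cells and cells under the 4 other inducers, tested directly as a contrast of 18 libraries with edgeR, passed an adjusted p of 0.05 for 7 members. TUBA4A (log2 -1.01), TUBB3 (-0.84), TUBB6 (-0.53), TUBB (-0.52) and TUBA1B (-0.36) were lower in FASTIS cells, and TUBB2B (0.81) and TUBB2A (0.75) were higher. The contrast averages over unlike groups, and the TUBA1B levels of bleomycin cells (449 CPM) and palbociclib cells (467 CPM) were close to those of ND-646 cells (431 CPM) and TVB-3166 cells (495 CPM). The TUBA1B call was lost without ND-646 replicate 2 (-0.31, adjusted p = 0.0549), without TVB-3166 replicate 2 (-0.33, adjusted p = 0.0527) and in the sum of the TUBA1 genes (-0.21, adjusted p = 0.172). For TUBA4A the 6 FASTIS libraries did not overlap the 12 others.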

How the results depend on the processing

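Among 150 values (10 members in 15 comparisons), 97 were called, and none of 1486 alternatives of these turned its direction. Of the 97, 79 kept their call under all alternatives other than the fold rule. Direction turned 44 times, in 16 values that were not called and were at most 0.16 in size. Of the 150, DESeq2 lost 0 calls and gained 7, the fit of all 24 libraries lost 6 and gained 6, library totals lost 3 and gained 5, RLE factors lost 1, and both other filters changed none. The cause was not tested in any case.

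With a fold change of at least 2 and an unadjusted p under 0.05, the members called were 5 with TVB-3166, 1 with alisertib and 3 with doxorubicin against day 0. Against day 7 they were 4 with each FASTIS drug, 3 with bleomycin and with palbociclib and 1 with alisertib and with doxorubicin. In FASTIS against the other inducers there was 1. In ND-646, bleomycin and palbociclib cells TUBB and TUBB3 also passed this rule against day 0, and the full counts for these drugs are not given here. The shares of all genes under this rule were not computed, so nothing about the members is read from its counts. The study counted changed genes against day 0 with a like rule, a fold change above 2 and p under 0.05. Of the 97 called values, 55 lost their call under the rule used here, which removes smaller changes by its construction. Between day 7 and day 0, DESeq2 called 3 members, the fit of all 24 libraries 1 and the replicate block 2, and leaving out single libraries gave 0 to 1. For alisertib against day 7, the fit of all 24 libraries called 3 members, and leaving out single libraries gave 2 to 7.

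With the replicate number as a block, 7 members were called for alisertib against day 7, which was taken as paired, and no other call changed in the paired comparisons. Elsewhere not every pair of same-numbered libraries correlated above 0.1, which does not show that they are unrelated. For day 7 against day 0 the correlations were 0.222, 0.0711 and 0.137. There the block moved the count from 0 to 2 (TUBB and TUBB4B), and the calls over all genes from 80 to 1263. In the other unpaired comparisons the block lost TUBB6 in ND-646 and TUBA4A in bleomycin against day 0. It gained TUBB4B in ND-646 and TUBB6 in palbociclib against day 7 and TUBA1A in FASTIS against the other inducers. No other call changed.

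Values that turned in sign under library totals were TUBB3 between day 7 and day 0 (0.018), TUBB2A in bleomycin against day 7 (-0.062), and TUBA1C (0.00082), TUBA4A (0.087) and TUBB (0.080) in TVB-3166 against ND-646. There TUBB2A turned with DESeq2 (-0.0025), RLE factors (-0.0031) and all 24 libraries (-0.0016), and TUBA1C with summed paralogs (0.039).

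Leaving out single libraries gave ranges that crossed 0 for TUBB2B in alisertib against day 0 (-0.044 to 0.16), TUBA4A (-0.23 to 0.023), TUBB3 (-0.20 to 0.062) and TUBB6 (-0.016 to 0.27) between day 7 and day 0, TUBB2A in bleomycin (-0.059 to 0.18), and TUBA1C (-0.13 to 0.076) and TUBB4B (-0.016 to 0.25) in alisertib, these against day 7. In TVB-3166 against ND-646 the ranges were -0.13 to 0.26 for TUBA1A, -0.37 to 0.19 for TUBA1C, -0.18 to 0.13 for TUBA4A, -0.19 to 0.10 for TUBB, -0.059 to 0.10 for TUBB2A, -0.11 to 0.25 for TUBB2B and -0.081 to 0.24 for TUBB4B. In FASTIS against the other inducers they were -0.19 to 0.099 for TUBA1C and -0.16 to 0.0086 for TUBB4B.

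Depth limits the lowest members, TUBB2B and TUBB3, and 3 libraries a group limit all tests.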
